A study of Mus musculus with 18 samples.

Results

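Mammalian cells hold 2 kinds of ribosome, and the protein genes of both were measured here in the embryonic mouse neocortex. A gene was taken as cytosolic when the array's gene symbol had the form of an Rpl or Rps name with a number, and as mitochondrial when it had the form Mrpl or Mrps with a number. A gene with more than 1 probe was represented by the probe measured on the larger number of arrays. Of 21766 probes that were no control spots, 135 represented a gene of these 2 classes, 63 cytosolic and 72 mitochondrial. The 232 control spots that all carried Gapdh, a glycolysis enzyme used as a housekeeping gene, served as the comparison that belongs to neither class.

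Neocortex of E13.5 embryos of the outbred MF1 stock was sampled as a rostral, a middle and a caudal region, with no treatment or genetic change named, and 3 RNA pools stood for each region, all from 4 embryos. Which embryos went into which pool is not given in the labels, so pools of different regions may share embryos, and p-values measure only the spread between pools, which may be technical. The pools were hybridised against pools of the other regions on 18 arrays of 2 colours, 6 for each pair of regions, so that every pool was labelled with each dye on 2 of its 4 arrays. Ratios were read as Cy5 over Cy3; the sources used here do not state the direction, and this reading is likely because Nr2f1, a caudally expressed regulator of cortical areas, then comes out at -1.02 ± 0.07 (log2, SE) in rostral minus caudal pools (limma adjusted p = 0.0138). If the ratios run the other way, every sign turns. Ratios between regions carry no level of expression, so neither the abundance of a gene nor the presence of the markers of neocortex can be read from them.

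The cytosolic ribosome translates nuclear-encoded messages, and its proteins are made in matched amounts from messages that respond together to growth signals such as mTOR, many through a tract of pyrimidines at their 5' end. The mitochondrial ribosome translates only the few messages of the mitochondrial genome, which encode subunits of the respiratory chain and ATP synthase. Its proteins are encoded in the nucleus, made by cytosolic ribosomes and imported, so both classes are nuclear genes that differ in the particle they build.

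Promoter windows of both classes were searched for 6 sequence features. RefSeq windows (GRCm38.p6), which run from 250 bases before to 50 bases after a start, were matched for 115 of the 135 members, 51 cytosolic and 64 mitochondrial. A run of at least 8 pyrimidines (C or T, sense strand) that touched the bases within 10 of the start was present in 21 of 51 cytosolic windows (41.2%) and in 9 of 64 mitochondrial windows (14.1%), beside 3651 of the 27025 windows of all genes. The letters CCGGAAG, the kind of site bound by Ets-family factors, were found on either strand in 41.2% of the cytosolic and 34.4% of the mitochondrial windows, beside 9.12% of all windows. The letters TATAAA were present in 7.84% of the cytosolic and 6.25% of the mitochondrial windows, beside 14.2% of all. On either strand, CCAAT was present in 29.4% of the cytosolic and 40.6% of the mitochondrial windows, beside 37.9% of all, and CACGTG in 9.80% and 7.81%, beside 7.24%. The palindromic core motif of the factor Nrf1 was present in 1 cytosolic and 3 mitochondrial windows, beside 0.977% of all. The pyrimidine run was thus the feature in which the classes stood farthest apart, while CCGGAAG was common to both. The reverse complement of CCGGAAG can overlap a pyrimidine run, and the all-gene windows include genes of every kind. The 6 windows here were chosen from the members named below to show a run in the cytosolic class and its presence or absence in the mitochondrial class; each spans 80 bases before the start and the first 20 bases after it, 5' to 3', with the pyrimidine run at the start and CCGGAAG sites in capitals.
Rpl13: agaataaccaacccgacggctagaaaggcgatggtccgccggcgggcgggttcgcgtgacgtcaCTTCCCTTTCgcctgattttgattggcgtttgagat
Rps10: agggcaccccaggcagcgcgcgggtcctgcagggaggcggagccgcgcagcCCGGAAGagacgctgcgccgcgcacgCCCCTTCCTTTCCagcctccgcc
Rps6: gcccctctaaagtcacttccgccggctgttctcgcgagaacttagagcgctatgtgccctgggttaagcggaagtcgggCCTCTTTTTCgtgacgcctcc
Mrpl2: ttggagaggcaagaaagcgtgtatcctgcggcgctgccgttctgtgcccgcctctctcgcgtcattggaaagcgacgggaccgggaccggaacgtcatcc
Mrps18a: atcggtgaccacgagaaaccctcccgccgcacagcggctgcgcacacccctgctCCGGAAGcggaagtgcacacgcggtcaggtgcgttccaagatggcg
Mrpl12: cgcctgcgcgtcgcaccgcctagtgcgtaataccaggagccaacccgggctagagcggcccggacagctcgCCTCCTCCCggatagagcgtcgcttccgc
These are Rpl13 at chr8:123102270-123102369 on the plus strand, Rps10 at chr17:27635225-27635324 on the minus strand, Rps6 at chr4:86857348-86857447 on the minus strand, Mrpl2 at chr17:46646141-46646240 on the plus strand, Mrps18a at chr17:46110924-46111023 on the plus strand and Mrpl12 at chr11:120484557-120484656 on the plus strand. All 3 cytosolic windows carry a run at the start, Rps10 beside a CCGGAAG site. Mrpl2 carries no run at the start and no CCGGAAG site within the bases shown, Mrps18a carries a CCGGAAG site without a run at the start, and Mrpl12 is 1 of the 9 mitochondrial windows with a run. A match is a stretch of letters, and neither binding nor translation was measured.

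The main result is a gap between the classes that separated the rostral pools from all others. The cytosolic class median minus the mitochondrial class median was -0.073, -0.073 and -0.088 in the rostral pools, against 0.040, 0.034 and 0.033 in the middle pools and 0.0044, 0.032 and 0.063 in the caudal pools (log2). All 3 rostral pools lay below the 6 others without overlap, and the middle and caudal pools overlapped. The regional means were -0.078 ± 0.0085 rostral, 0.035 ± 0.0042 middle and 0.033 ± 0.029 caudal (SD, n = 3 pools each). Of the 62 cytosolic members measured in every pool, 54, 59 and 58 lay below the mitochondrial class median in the rostral pools, against 18, 12 and 14 in the middle pools and 30, 14 and 9 in the caudal pools. The mitochondrial class median minus the Gapdh spot median also set the rostral pools apart, at 0.16, 0.10 and 0.030. It was -0.077, -0.041 and -0.023 in middle pools and 0.0018, 0.0030 and -0.092 in caudal pools. The cytosolic minus the Gapdh median overlapped, from -0.058 to 0.086 rostral, -0.036 to 0.0093 middle and -0.030 to 0.035 caudal. The separation from the mitochondrial class was thus shared by Gapdh. These are scores over members and control spots and carry no test. For every value here, fewer cells of a type and less RNA per cell cannot be told apart.

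The same gap stood on every single array that held a rostral pool, where both classes were read on 1 slide and the centring of the array cancels. With the ratio as deposited, the cytosolic minus the mitochondrial median was -0.077 to -0.029 on the 6 arrays with a rostral pool in Cy5, and 0.12 to 0.20 on the 6 arrays with a rostral pool in Cy3. The sign followed the dye of the rostral pool on all 12 arrays. With the dye coefficient of the classes (0.039) taken out and the ratios turned, rostral over caudal gave -0.16 to -0.083 and rostral over middle gave -0.13 to -0.068, while middle over caudal lay on both sides of 0, from -0.039 to 0.058, with 3 of 6 arrays below 0.

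**Figure D1:**
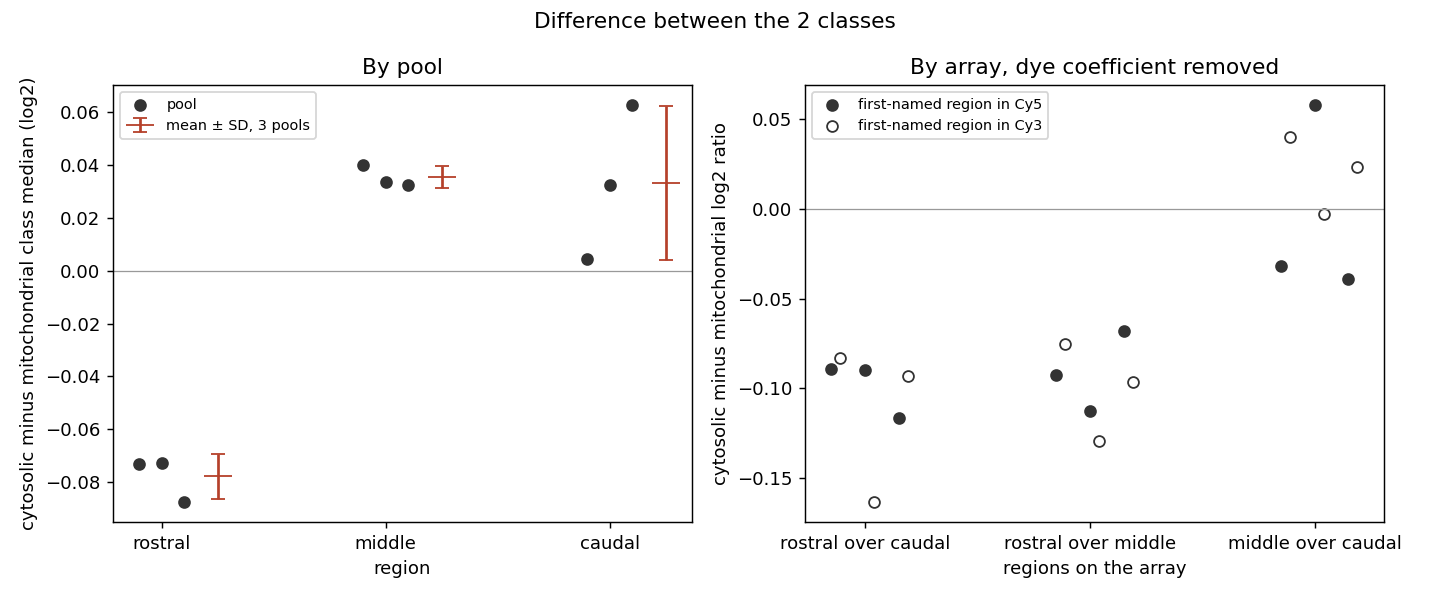
Cytosolic minus mitochondrial class median (log2) by pool on the left, with the mean and SD of 3 pools for each region. On the right it is shown for each of the 18 arrays, with the dye coefficient of the classes taken out. Array values are turned so that the region named first is on top of the ratio, with filled points for that region in Cy5 and open points for Cy3. The rostral pools lie between -0.088 and -0.073 and the other 6 pools between 0.0044 and 0.063, and all 12 arrays with a rostral pool lie below 0.

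Each class on its own varied more between pools of a region than the gap did. The cytosolic median was -0.0039, -0.011 and -0.21 in rostral pools, 0.032, 0.078 and 0.087 in middle pools and -0.13, 0.068 and 0.12 in caudal pools (log2 relative to the mean of the 9 pools). The mitochondrial median was 0.069, 0.062 and -0.12 in rostral pools, -0.0083, 0.045 and 0.055 in middle pools and -0.14, 0.036 and 0.053 in caudal pools. Rostral pool 3 and caudal pool 1 were the lowest pools of both classes on this centring. Without centring, caudal pool 1 was at 0.093 for the cytosolic and 0.085 for the mitochondrial class, the highest mitochondrial value, and rostral pool 3 was at -0.12 and -0.028. The Gapdh control spots were low in these pools too, with medians of -0.090, -0.040 and -0.15 rostral, 0.068, 0.086 and 0.078 middle and -0.14, 0.033 and 0.15 caudal. The SD between pools within a region was 0.10 for the cytosolic, 0.089 for the mitochondrial and 0.089 for the Gapdh median, against 0.018 for the gap between the classes.

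**Figure D2:**
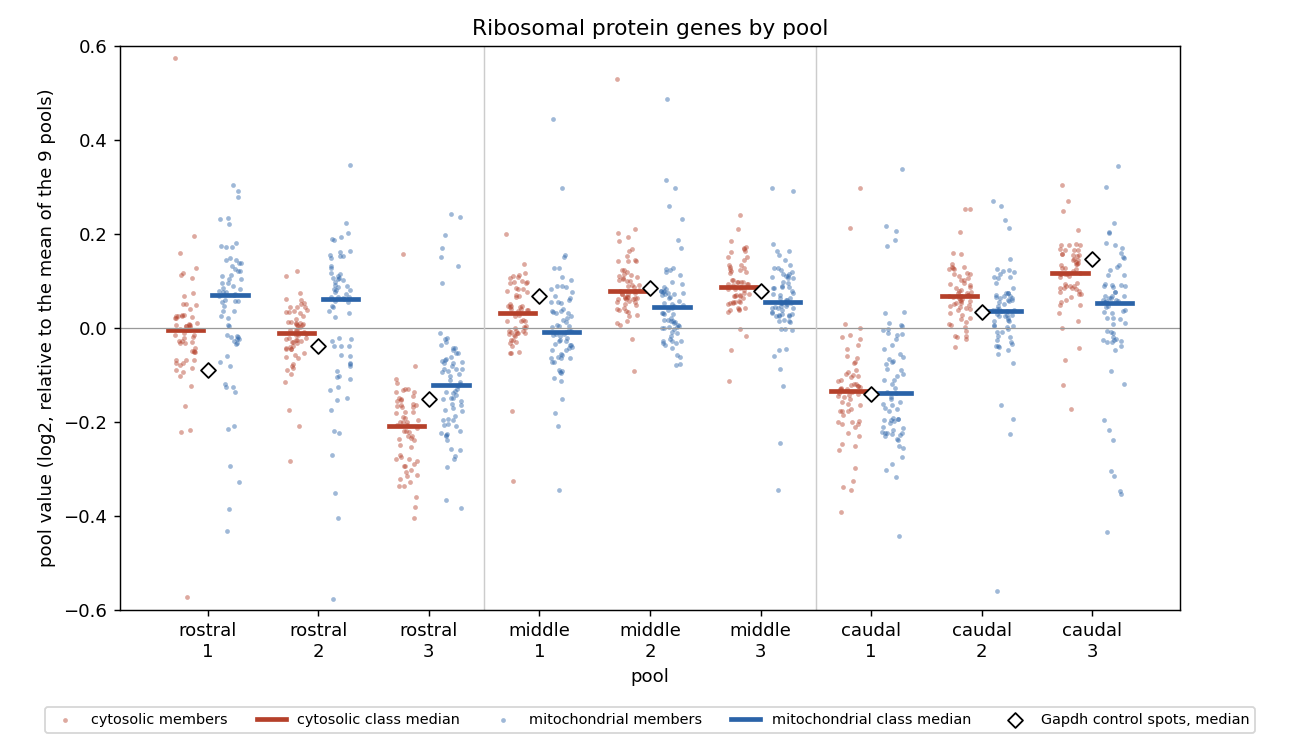
Pool values (log2, relative to the mean of the 9 pools) of the 62 cytosolic and 70 mitochondrial members, with bars at the class medians and diamonds at the median of the Gapdh control spots; 19 of 1188 member values lie beyond the axis. The cytosolic bar lies below the mitochondrial bar in the 3 rostral pools and above it in the other 6, and on this centring all 3 medians are lowest in rostral pool 3 and caudal pool 1.

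Between rostral and caudal pools, 55 of 62 cytosolic and 28 of 70 mitochondrial members had a difference below 0, with class medians of -0.086 and 0.024 (0.010 and 0.12 with arrays centred on the Gapdh spots, -0.16 and -0.049 without centring), beside 9181 of 18525 features in all and a median of 0.0016. No member passed the limma test over all features in any pair of regions, with lowest adjusted p-values of 0.186 for a cytosolic and 0.283 for a mitochondrial member here; 0.0648% of all features (12) passed, and 0 to 4 features with any 1 pool left out. At an unadjusted limma p under 0.05, 6 cytosolic members were below 0 and 0 above, and 6 mitochondrial members were below and 2 above, beside 3.74% of all features below and 4.17% above. Pools did not overlap, with rostral below, for 6 cytosolic (9.68%) and 7 mitochondrial members, beside 5.89% of all features. With rostral above, the counts were 0 and 2, beside 6.22%. These counts depend on the scale. With rostral wholly below, they were 41 cytosolic and 19 mitochondrial members without centring, 31 and 10 with arrays centred on the mitochondrial class and 5 and 3 with arrays centred on the Gapdh spots. With rostral wholly above, they were 0 and 4 without centring, 1 and 10 centred on the mitochondrial class and 1 and 20 centred on the Gapdh spots. The counts of all 18525 features moved with the scale too. Without centring, 1772 of them lay wholly below and 337 wholly above, and with Gapdh centring 250 and 1900. With arrays centred on the mitochondrial class, both shares of all features were under the 5.89% wholly below and 6.22% wholly above given first. With Gapdh centring 28 of 62 cytosolic members lay below 0. Relative to the median of all features, which a change of scale leaves in place, 56 of 62 cytosolic members lay below it. Leaving out 1 pool moved the medians: the cytosolic median was -0.022 without rostral pool 3, -0.038 without caudal pool 3, -0.13 without rostral pool 1 and -0.17 without caudal pool 1. The mitochondrial median was 0.084 without rostral pool 3, 0.053 without caudal pool 2, 0.047 without caudal pool 3, 0.016 without middle pool 1 or 2 and below 0 without rostral pool 1 (-0.0097), rostral pool 2 (-0.0067) or caudal pool 1 (-0.039).

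Between rostral and middle pools, 60 of 62 cytosolic and 42 of 70 mitochondrial members lay below 0, with class medians of -0.15 and -0.051 (0.012 and 0.12 with arrays centred on the Gapdh spots, -0.053 and 0.050 without centring) beside 0.0022 over all features. Pools did not overlap for 34 cytosolic members (54.8%) and 15 mitochondrial members (21.4%), all with rostral below, beside 7.66% of all features with rostral below and 5.17% with rostral above. At an unadjusted limma p under 0.05, 11 cytosolic and 9 mitochondrial members lay below 0 and none of either class above, beside 3.09% and 2.16% of all features. After adjustment 0% of features passed, and the lowest adjusted p was 0.587 in both classes. All 23 small-subunit and 37 of 39 large-subunit cytosolic genes lay below 0, with medians of -0.17 and -0.14. Centred on the Gapdh spots, 27 of 62 cytosolic members lay below 0 (median 0.012), and rostral pools lay wholly below middle pools for 3 of the 62 and wholly above for 4. In the mitochondrial class the same centring gave 0 wholly below and 23 wholly above. Over all 18525 features it gave 88 wholly below and 6190 wholly above, with a median of 0.17. Without centring, 8 cytosolic and 3 mitochondrial members lay wholly below and 0 and 14 wholly above. Beside them stood 189 features wholly below and 2547 wholly above, with a median of 0.10 over all features. Without rostral pool 3 the cytosolic median was -0.081 and the mitochondrial median 0.016, and without rostral pool 1 the mitochondrial median was -0.088.

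Between middle and caudal pools the classes were alike in direction, with 53 of 62 cytosolic and 53 of 70 mitochondrial members above 0 and medians of 0.056 and 0.038 that turned to -0.014 and -0.033 with arrays centred on the Gapdh spots and to -0.12 and -0.14 without centring, beside 0.0020 over all features (-0.068 and -0.17 on those scales). Middle pools lay wholly above caudal pools for 6 cytosolic (9.68%) and 10 mitochondrial members (14.3%), beside 6.18% of all features, and wholly below for 0 of either class, beside 4.38%. Without centring these counts turned, to 0 cytosolic and 1 mitochondrial member wholly above and 29 and 34 wholly below. With Gapdh centring 4 and 3 were wholly above and 6 and 5 wholly below. Over all 18525 features, 92 lay wholly above and 4509 wholly below without centring, and 263 and 1329 with Gapdh centring. At an unadjusted limma p under 0.05, 3 cytosolic and 5 mitochondrial members were above 0 and 0 below, beside 3.08% and 1.78% of all features; after adjustment 0% of features passed. Without caudal pool 1 both medians were below 0, at -0.023 and -0.032; without caudal pool 2 or 3 they were 0.083 to 0.10 and 0.070 to 0.072.

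The rostral gap between the classes was present in both ribosomal subunits. In rostral pools the large-subunit medians were 0.0035, -0.0083 and -0.20 for Rpl genes against 0.058, 0.054 and -0.12 for Mrpl genes, and the small-subunit medians were -0.016, -0.013 and -0.25 for Rps genes against 0.077, 0.065 and -0.13 for Mrps genes. In every rostral pool the cytosolic subunit lay below its mitochondrial counterpart. In middle pools they were 0.015, 0.073 and 0.082 for Rpl against -0.0076, 0.031 and 0.053 for Mrpl genes, and 0.039, 0.086 and 0.097 for Rps against -0.013, 0.053 and 0.055 for Mrps genes, with the cytosolic subunit higher in each pool. In caudal pools the medians were -0.14, 0.066 and 0.12 for Rpl against -0.15, 0.041 and 0.057 for Mrpl genes. They were -0.12, 0.069 and 0.12 for Rps against -0.11, -0.0028 and 0.019 for Mrps genes. In caudal pool 1 the Rps median lay below the Mrps median, as in rostral pools. Subunits were assigned by gene name alone, which was not checked against the structure of the particle. Between rostral and caudal pools, 20 of 45 Mrpl and 8 of 25 Mrps genes lay below 0, with medians of 0.0038 and 0.047. On the same centring, 34 of 39 Rpl genes (median -0.084) and 21 of 23 Rps genes (median -0.11) lay below 0.

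**Figure D3:**
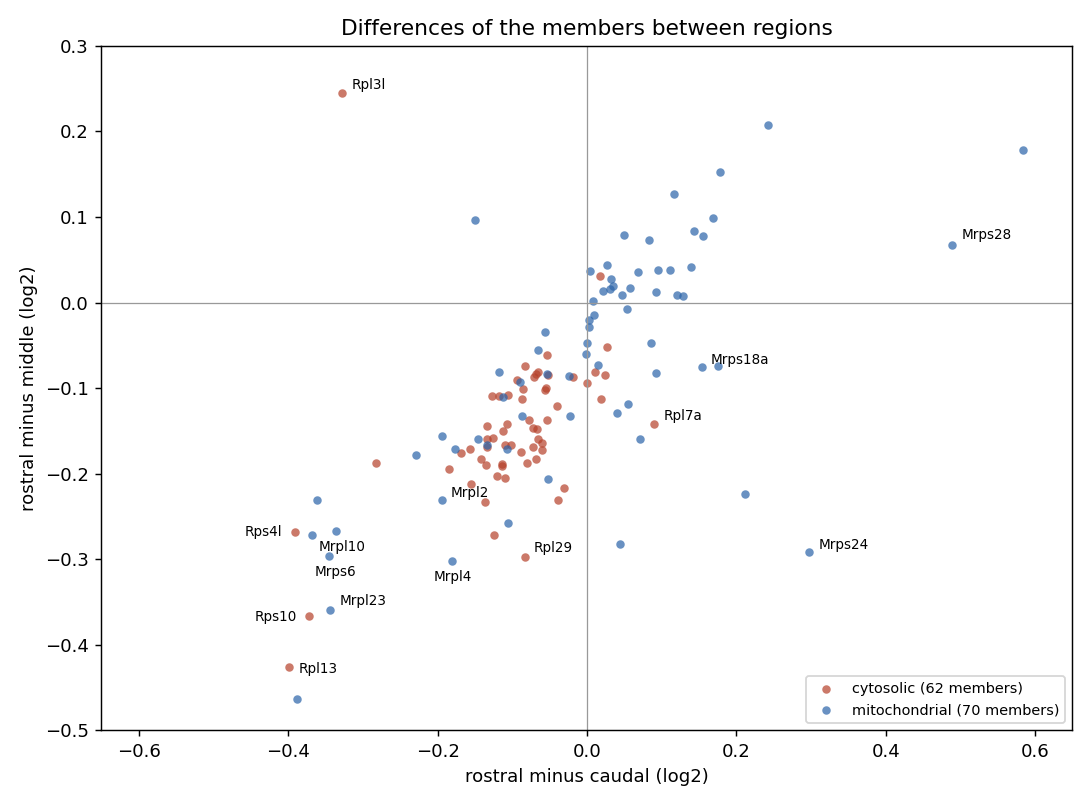
Difference between rostral and caudal pools (log2, x axis) against that between rostral and middle pools (log2, y axis) for each member; both share the rostral pools, and 1 mitochondrial member lies beyond the axes. Cytosolic members gather below and left of 0 (medians -0.086 and -0.15, which turn to 0.010 and 0.012 with arrays centred on the Gapdh spots), and mitochondrial members spread to both sides.

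Among cytosolic members, Rpl13, a large-subunit protein, had the lowest p between rostral and caudal and between rostral and middle pools. Its values were -0.22, -0.28 and -0.32 in the rostral pools, 0.11, 0.21 and 0.13 in the middle pools and -0.036, 0.16 and 0.25 in the caudal pools. The rostral pools lay below all others, and the differences were -0.40 ± 0.080 from caudal (limma adjusted p = 0.186) and -0.43 ± 0.080 from middle pools (SE; adjusted p = 0.587). Rps10, a small-subunit protein whose human gene is mutated in some families with Diamond-Blackfan anaemia, behaved alike in size. It measured -0.22, -0.21 and -0.31 in the rostral pools, 0.078, 0.16 and 0.12 in the middle pools and -0.019, 0.13 and 0.27 in the caudal pools. Again no rostral pool reached any other pool, and the differences were -0.37 ± 0.080 and -0.37 ± 0.080 (limma adjusted p = 0.204 and 0.587).

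Rps4l, an autosomal relative of the X-linked Rps4x, measured -0.12, -0.17 and -0.36 in the rostral pools, -0.054, 0.079 and 0.12 in the middle pools and 0.21, 0.20 and 0.10 in the caudal pools. It differed by -0.39 ± 0.082 between rostral and caudal pools (limma adjusted p = 0.198), which did not overlap, while Rps4x differed by -0.065 ± 0.067 (adjusted p = 0.914). Rps3a1, a small-subunit protein, had the narrowest spread of the 4 members with lowest p, at -0.078, -0.090 and -0.11 in the rostral pools, 0.038, 0.061 and 0.056 in the middle pools and -0.014, 0.047 and 0.089 in the caudal pools. All its rostral pools lay below the others, with differences of -0.13 ± 0.046 and -0.14 ± 0.046 from caudal and middle pools (limma adjusted p = 0.477 and 0.854).

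A second set of cytosolic members stood out for their middle pools. Rpl29, a large-subunit protein, measured -0.17, -0.085 and -0.13 in the rostral pools, 0.20, 0.19 and 0.12 in the middle pools and -0.13, -0.018 and 0.014 in the caudal pools. Its middle pools lay above the rostral and the caudal pools without overlap, by 0.21 ± 0.057 over caudal (limma adjusted p = 0.603) and with rostral minus middle at -0.30 ± 0.057 (adjusted p = 0.587). Rpl7a and Rpl13a, also of the large subunit, also had middle pools above all others, with middle minus caudal at 0.23 ± 0.068 and 0.19 ± 0.069. For Rps19, the gene most often mutated in human Diamond-Blackfan anaemia, middle minus caudal was 0.19 ± 0.080 and rostral minus middle -0.22 ± 0.080. By means, the middle region was highest for 53 of 62 cytosolic members (85.5%), 31 of 70 mitochondrial members (44.3%) and 31.6% of all features, and the rostral region was lowest for 54 (87.1%), 27 (38.6%) and 33.5%. That order belongs to the centring used: without centring 58 of 62 cytosolic members were lower in middle than in caudal pools, and with arrays centred on the Gapdh spots 28 of 62 had a rostral mean under the caudal one.

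Rps6, Rpl5, Rpl11 and Rps3, members with well-known roles beyond the ribosome, had differences of less than 2 SE. Rps6, the small-subunit protein phosphorylated by S6 kinase downstream of mTOR, measured 0.0014, 0.0073 and -0.17 in the rostral pools, -0.0074, 0.063 and 0.093 in the middle pools and -0.090, 0.022 and 0.079 in the caudal pools. Rostral pool 3 and caudal pool 1 were its lowest, the regions overlapped, and rostral minus caudal was -0.057 ± 0.072 (limma adjusted p = 0.938). Rpl5 and Rpl11, which bind Mdm2 as free proteins and so link ribosome assembly to p53, had -0.019 ± 0.071 and -0.072 ± 0.15 between rostral and caudal and -0.087 ± 0.071 and -0.17 ± 0.15 between rostral and middle pools. Rps3, at the entry of the messenger channel of the small subunit, had -0.12 ± 0.17 between rostral and caudal and -0.27 ± 0.17 between rostral and middle pools.

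Mitochondrial members had differences of both signs. Mrpl2, a protein of the large-subunit core, measured -0.14, -0.15 and -0.13 in the rostral pools, 0.076, 0.083 and 0.11 in the middle pools and -0.015, 0.11 and 0.067 in the caudal pools. The rostral pools lay below all others, with differences of -0.19 ± 0.049 and -0.23 ± 0.049 from caudal and middle pools (limma adjusted p = 0.283 and 0.587). Mrps6, of the small subunit, measured -0.082, -0.18 and -0.38 in the rostral pools, 0.056, 0.077 and 0.11 in the middle pools and 0.035, 0.23 and 0.13 in the caudal pools. Its rostral pools were also lowest, by -0.35 ± 0.089 against caudal pools (adjusted p = 0.296 by limma). Mrpl10, of the large-subunit stalk base, had -0.37 ± 0.10 (limma adjusted p = 0.344), with no overlap of rostral and caudal pools. For Mrpl4 and Mrps7 the distance lay between rostral and middle pools, at -0.30 ± 0.10 and -0.21 ± 0.070.

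In the other direction, Mrps28, of the small subunit, measured 0.28, 0.35 and -0.068 in the rostral pools, 0.0053, 0.17 and 0.18 in the middle pools and -0.44, -0.16 and -0.30 in the caudal pools. Its 3 rostral pools lay above its 3 caudal pools, by 0.49 ± 0.13 (limma adjusted p = 0.302), and the middle pools overlapped the rostral ones. Mrps18a, 1 of the mammalian relatives of the bacterial protein S18, measured 0.069, 0.046 and -0.037 in the rostral pools, 0.087, 0.074 and 0.14 in the middle pools and -0.24, -0.055 and -0.091 in the caudal pools. Caudal pools were lowest without overlap, with rostral minus caudal at 0.15 ± 0.064 and middle minus caudal at 0.23 ± 0.064 (limma adjusted p = 0.62 and 0.653). Mrpl36 also had middle over caudal pools, by 0.17 ± 0.068. Mrps24, with middle minus caudal at 0.59 ± 0.24, had a residual SD between arrays of 0.701, against a class median of 0.097. Mrpl12, which in human cells also binds the mitochondrial RNA polymerase, had -0.15 ± 0.091 between rostral and caudal pools, and Mrps12, the relative of the bacterial protein in which streptomycin resistance mutations arise, had -0.090 ± 0.059.

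Chosen after their values were seen, because their rostral pools lay wholly below their caudal pools, were 2 further cytosolic and 4 further mitochondrial members. Rpl10, a large-subunit protein near the catalytic centre, differed by -0.18 ± 0.067 between rostral and caudal pools, and Rps26 by -0.16 ± 0.061. In the mitochondrial class the differences were -0.34 ± 0.10 for Mrpl39, -0.19 ± 0.069 for Mrpl52, -0.23 ± 0.071 for Mrps15 and -0.12 ± 0.055 for Mrps22 (limma adjusted p between 0.373 and 0.688). These members were picked for this pattern, so their differences are a description.

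**Figure D4:**
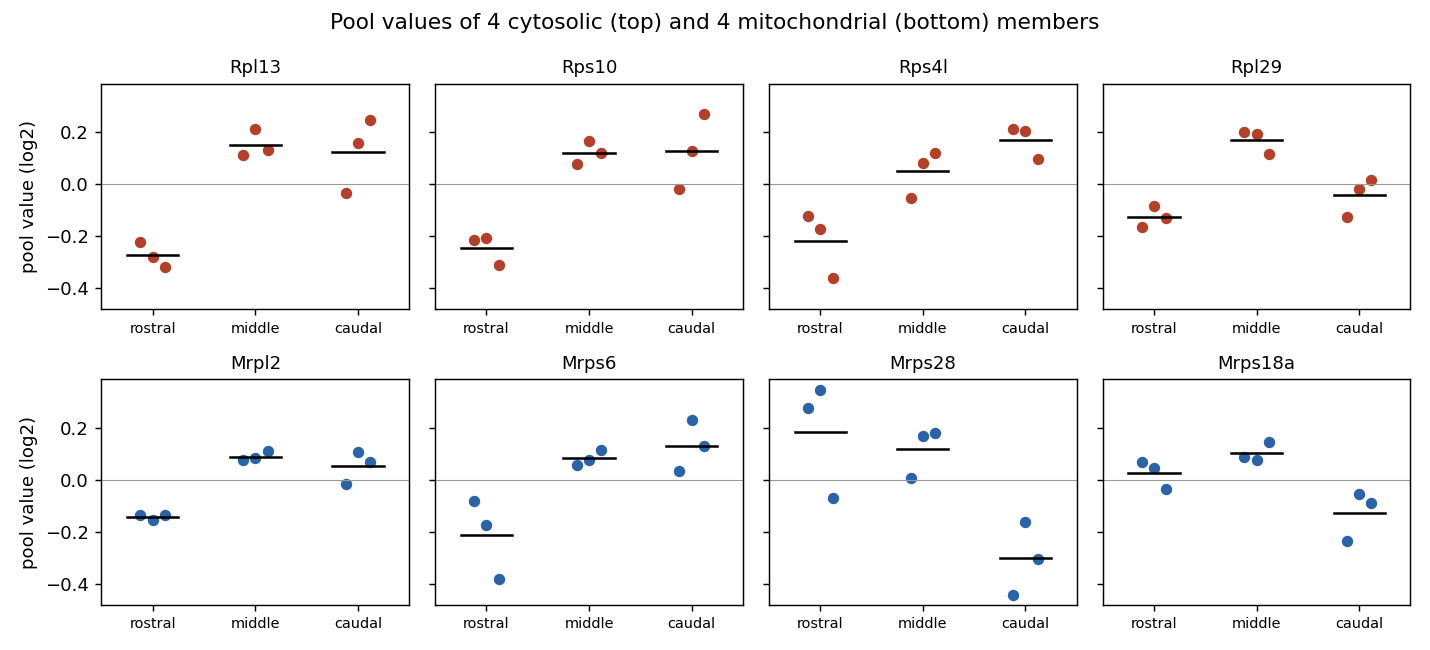
Pool values (log2) of 4 cytosolic members (top) and 4 mitochondrial members (bottom) by region, with a line at each mean of 3 pools. Rostral pools are below the others for Rpl13, Rps10, Rps4l, Mrpl2 and Mrps6, while caudal pools are lowest for Mrps28 and Mrps18a.

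Cytosolic members varied together across pools. Over the 9 pools, the median Pearson r of a cytosolic member with the median of the rest of its class was 0.926, and 60 of 62 had r above 0.5, against 0.689 and 47 of 70 for mitochondrial members. All pools share the array network and the centring, so these values are a description. Rps20 (r = 0.991), Rps7 (0.988) and Rps3 (0.984), all of the small subunit, were nearest to the cytosolic median. Rpl32 (-0.182) and Rpl3l (0.482) were farthest, and their residual SDs between arrays, 0.877 and 0.563, were well above the class median of 0.087. In the mitochondrial class, Mrpl30 (0.972), Mrps16 (0.962) and Mrpl33 (0.959) were nearest, and Mrpl19 (-0.605) and Mrpl55 (-0.61) went against it.

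The cytosolic class followed the Gapdh control spots. Across the 9 pools the cytosolic median had r = 0.919 with the Gapdh median (Spearman rho = 0.95), and 0.904 without rostral pool 3 and caudal pool 1, the 2 pools farthest out. The mitochondrial median had r = 0.661 (rho = 0.317), which became -0.379 without the same pools, so that relation rests on them. The classes had r = 0.853 with each other (rho = 0.383), and -0.085 without the same pools. The gap between the classes had r = 0.809 with the Gapdh spots (rho = 0.9), and 0.943 without those pools. Gene by gene, 56 of 62 cytosolic members (90.3%), 30 of 70 mitochondrial members (42.9%) and 2586 of all 18525 features had r above 0.5 with the Gapdh spots, with medians of 0.855, 0.449 and -0.034. No difference between these correlations was tested.

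**Figure D5:**
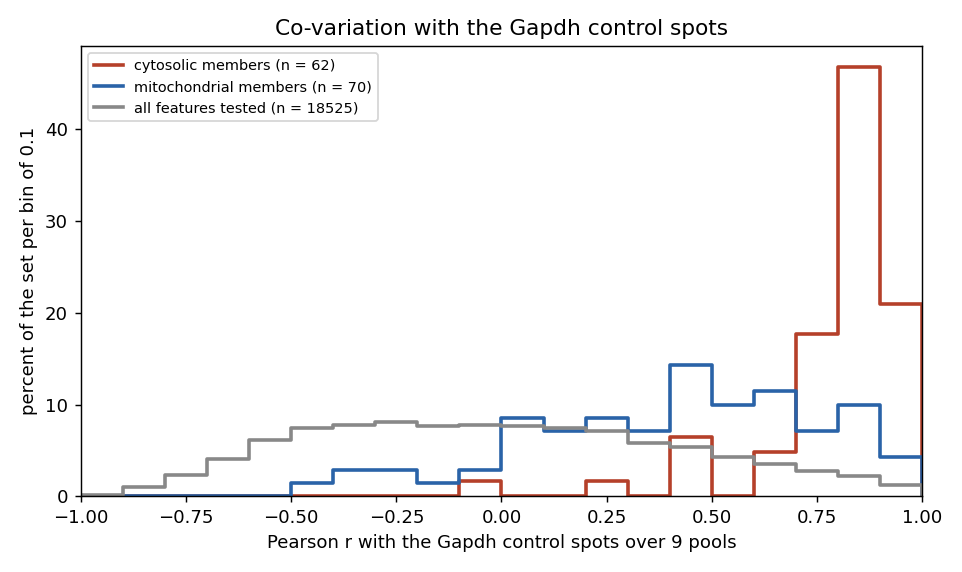
Percent of each set per bin of 0.1 in Pearson r with the Gapdh control spots over the 9 pools, for the cytosolic members, the mitochondrial members and all 18525 features. Cytosolic members pile up at the right end (median 0.855), mitochondrial members are broader (median 0.449) and all features centre near 0 (-0.034).

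Relatives of a gene did not always follow it. Rpl39 and Rpl39l, a relative known from testis, had r = 0.816 over the pools, and differed by -0.14 ± 0.11 and -0.083 ± 0.079 between rostral and caudal pools. Rps4x and Rps4l had r = 0.591 and Rpl22 and Rpl22l1 0.457. Rpl7, with rostral minus caudal at -0.12 ± 0.060, and Rpl7l1, at 0.017 ± 0.11, had r = 0.455. Rpl3 and Rpl3l, a form best known from muscle, had r = 0.590, with Rpl3 at -0.053 ± 0.089 and the noisy Rpl3l at -0.33 ± 0.35. Cytosolic ribosomal protein genes have many processed pseudogenes and close relatives, and probe sequences were not used here, so signal from such copies cannot be told apart from that of the named gene.

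Dye coefficients centred near 0 in both classes, with a few exceptions. The dye coefficient (Cy5 over Cy3, log2) had a median of 0.0013 in cytosolic and -0.016 in mitochondrial members, beside 0.014 over all features. The extremes were Rpl32 (0.21), Rpl9 (0.085), Rpl14 (-0.18) and Rpl41 (-0.15) among cytosolic genes, and Mrps30 (1.17), Mrpl23 (0.56), Mrps23 (-0.32) and Mrpl55 (-0.26) among mitochondrial genes. Mrps30, measured on 14 arrays, also had a residual SD between arrays of 1.36. Values on all 18 arrays were available for 59 of 62 cytosolic and 66 of 70 mitochondrial members, beside 67.9% of all features, and the median residual SD between arrays was 0.087 and 0.097, beside 0.256 over all features. Rpl37, Mrpl20 and Mrpl21 had values on 8, 6 and 7 arrays and were not fitted. Of 6 cytosolic genes with a second probe, 4 had both probes fitted, and these had the same sign between rostral and caudal pools. Probes were matched to genes by the platform annotation, and whether both probes of a gene read the same transcript was not checked. Between rostral and middle pools the probes of Rpl23 differed in sign, at -0.091 ± 0.067 and 0.022 ± 0.067, and between rostral and caudal pools they were at -0.093 and -0.0052.

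Genes that work beside each ribosome were listed separately. The 5 cytosolic ribosome genes whose names fall outside the rule, Fau, Rplp0, Rplp1, Rplp2 and Rpsa, all lay below 0 in both rostral comparisons, with medians of -0.077 against caudal and -0.21 against middle pools. Their median minus the mitochondrial class median was -0.099, -0.10 and -0.10 in rostral pools, 0.13, 0.084 and 0.049 in middle pools and -0.015, 0.092 and -0.022 in caudal pools, without overlap of rostral with other pools, which the red blood cell markers described below also showed. Of them Fau, which encodes a small-subunit protein fused to a ubiquitin-like part, had -0.32 ± 0.068 between rostral and middle pools (limma adjusted p = 0.587), and the stalk protein gene Rplp2 had -0.22 ± 0.084. Of 35 cytosolic translation factors, 29 lay below 0 between rostral and caudal pools (median -0.068), beside 9181 of all 18525 features. Between rostral and middle pools 28 of the factors did (median -0.10), beside 9142 of all features. Rostral minus caudal was -0.30 ± 0.069 for Eef1a1, which brings aminoacyl-tRNA to the ribosome, and -0.35 ± 0.083 for the initiation factor subunit Eif3h (limma adjusted p = 0.234 and 0.244). Rostral pools lay wholly below middle pools for 14 of the 35 factors (40%) and wholly above for 0, beside 7.66% and 5.17% of all features. These counts are for arrays centred on their own medians. The median of the factors minus the mitochondrial class median was -0.084, -0.091 and -0.018 in rostral pools. It was -0.0022, 0.0069 and 0.010 in middle and 0.069, 0.0079 and 0.031 in caudal pools. Here too the rostral pools did not overlap the others.

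On the mitochondrial side, 8 of 23 translation factors lay below 0 between rostral and caudal pools (median 0.078) and 11 of 23 between rostral and middle pools (median 0.014). Between rostral and caudal pools Mtif3, an initiation factor, had 0.53 ± 0.14 (limma adjusted p = 0.31) and Hars2, the mitochondrial histidyl-tRNA synthetase, 0.15 ± 0.051. Of 69 respiratory chain and ATP synthase genes, 29 lay below 0 between rostral and caudal pools (median 0.016). Between rostral and middle pools 49 did (median -0.042). There 13 (18.8%) had rostral wholly below and 1 (1.45%) wholly above, beside 7.66% and 5.17% of all features. These counts are for arrays centred on their own medians. Between rostral and caudal pools, Atp5pb, a stator subunit of ATP synthase, had 0.27 ± 0.049 and the cytochrome Cyc1 -0.21 ± 0.057 (limma adjusted p = 0.162 and 0.344). Of 40 ribosome assembly genes, 17 lay below 0 between rostral and caudal (median 0.039) and 24 between rostral and middle pools (median -0.035), with Brix1 and Emg1, which act in the nucleolus, at 0.33 ± 0.063 and 0.33 ± 0.074 between rostral and caudal pools. No gene of these 5 lists passed the test.

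Markers of other cells were followed in the same pools, and their part in the gap between the classes was not tested. No meninges, red blood cell or proliferation marker passed the test. All 12 meninges markers measured lay below 0 between rostral and caudal pools (median -0.14), and 10 of 12 between rostral and middle pools (median -0.041); their pool medians ran from -0.11 to -0.0039 in rostral, -0.035 to 0.014 in middle and 0.0078 to 0.13 in caudal pools. Red blood cell markers lay below 0 for 4 of 6 between rostral and caudal and 6 of 6 between rostral and middle pools, with pool medians of -0.35 to -0.0016 in rostral, 0.049 to 0.15 in middle and -0.15 to 0.17 in caudal pools. Their median minus the mitochondrial class median was -0.15, -0.064 and -0.22 in rostral pools, 0.15, 0.068 and -0.0064 in middle pools and -0.013, 0.13 and 0.050 in caudal pools, so the red blood cell markers separated the rostral pools as the cytosolic ribosome genes did. Proliferation markers lay above 0 for 11 of 15 between rostral and caudal pools (median 0.12). The radial glia marker Vim, an intermediate filament gene, was the only gene of all 13 lists that passed, at -0.51 ± 0.052 between rostral and caudal pools (limma adjusted p = 0.0389).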

How the data were processed

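RNA of 9 pools, extracted with Trizol per the labels, was compared on 18 arrays with 2 channels. The authors deposited 1 log2 ratio per probe and array for 21998 probes; the sources used here give no scanner, background correction or normalization. Genes were named from the platform annotation. The highest value, 16.61, was a cap and was set to missing (1477 values), and each array was centred on the median of its probes that are no control spots; 18085 to 20693 values per array remained.

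Pool values were least squares estimates over the arrays, with 1 coefficient per pool and 1 for the dye. A feature needed values on 12 arrays and on 2 arrays of each pool, which left 18525 features, 62 cytosolic and 70 mitochondrial members among them. Regions were compared with lmFit and eBayes of limma 3.58.1 in R 4.3.3 on the 9 pool values, 2-sided, with Benjamini-Hochberg adjustment over all features and a threshold of 0.05. Values after ± are standard errors of that fit, with 3 pools per region, unless called SD. Regions were said not to overlap where all pools of one lay beyond all pools of the other. Alternatives changed centring, caps, dye term, filters, probes, sample unit and pools. The fit was tested on simulated data with planted differences larger than those of the members, so this does not bear on differences of their size.

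Members, gene lists and tests were chosen with earlier results of these data known. Named were, per class and pair of regions, the 4 members with the lowest p; per class the 3 most and 2 least like their class and the 2 highest and 2 lowest in dye; relatives; textbook members; and, per other list, the 2 genes with the lowest p between rostral and caudal pools. Promoter windows are from RefSeq. The number of pools, 3 per region and all from 4 embryos, limits the precision.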

Additional observations from a re-analysis of the deposited data

How the results depend on the processing

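The gap between the classes kept every rostral pool below every other pool under all 19 alternatives that gave pool values, but 3 of these change only the centring, which cancels in the gap, and 2 (values on at least 8 arrays, mean of all probes) gave the same values, so they bear little or nothing on its stability. With single pools left out it ranged from -0.13 to -0.086 between rostral and caudal, -0.12 to -0.094 between rostral and middle and 0.00021 to 0.029 between middle and caudal pools. The medians of single classes moved with scaling. Centred on the Gapdh control spots, the cytosolic median between rostral and middle pools was 0.012 and the mitochondrial medians against caudal and middle were 0.12 and 0.12; without centring the mitochondrial rostral to middle median was 0.050 and the middle to caudal medians were -0.12 and -0.14, where the median of all features shifted by -0.069, 0.10 and -0.17 in the 3 pairs.

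Features past the threshold between rostral and caudal pools, 12 in number, became 0 without centring, 46 with values on all 18 arrays, 7 with at least 8 arrays, 47 without the noisiest 25% of features, 0 to 4 with single pools left out, and, chosen after seeing the data, 0 without rostral pool 3 and caudal pool 1 and 2 with arrays centred on the mitochondrial class. The pool number as a replicate block left 0. Same-numbered pools did not deviate together (r from -0.43 to -0.057). No array held pools of the same number, and the shared array network shapes these r values. They therefore cannot settle whether the number pairs pools. With arrays taken as samples, where arrays that share a pool count as independent and p-values are too small, features were 1327, 706 and 498 and members 20, 24 and 6 in the 3 pairs. Under all other alternatives 0 members passed (lowest adjusted p 0.0785, with values on all 18 arrays).

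Of the differences of named members under the alternatives, 254 changed sign without a call on either side, 2435 kept their sign and side, and 29 passed, all with arrays as samples. Over pools, r was 0.734 (cytosolic with mitochondrial), 0.885 (cytosolic with Gapdh) and 0.528 (mitochondrial with Gapdh) without centring, 0.303, 0.888 and -0.063 with rostral pool 3 and caudal pool 1 left out of the fit (chosen after seeing the data), and 0.732 to 0.90, 0.90 to 0.954 and 0.449 to 0.827 with single pools left out. The cause of these shifts was not tested.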

Other observations

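Other housekeeping genes were compared in the same way. Of 12 glycolysis genes, 7 lay below 0 between rostral and caudal pools (median -0.024), with Pgam1 at -0.29 ± 0.082 and Ldhb at 0.34 ± 0.10 (limma adjusted p = 0.362 and 0.38). Of 18 cytoskeleton and chaperone genes, 11 lay below 0 (median -0.015), with the chaperone Hspa5 at -0.23 ± 0.065 and the actin regulator Cfl1 at -0.19 ± 0.057. Between rostral and middle pools, 7 of 12 glycolysis genes (median -0.061) and 16 of 18 cytoskeleton and chaperone genes (median -0.082) lay below 0. Rostral pools were wholly below middle pools for 6 and 9 of them, 50% of each list. The share was 54.8% of the cytosolic ribosomal members and 7.66% of all features. These shares are for arrays centred on their own medians. Centred on the Gapdh spots, the cytosolic count was 3 of 62, and the lists are not given on that scale. The probe of the Gapdh gene itself, apart from the control spots, measured -0.11, -0.10 and -0.12 in rostral pools, 0.12, 0.14 and 0.026 in middle pools and -0.15, 0.043 and 0.15 in caudal pools, with r = 0.942 to the control spots.

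Markers of neocortex and of its cell types were mixed in direction. Of 13 radial glia markers 5 lay below 0 between rostral and caudal pools, with the glial glutamate transporter Slc1a3 at 0.32 ± 0.055. Of 14 cortical neuron markers 7 lay below 0, with Reln, secreted by Cajal-Retzius cells, at -0.36 ± 0.082 and Bcl11b at 0.21 ± 0.052. Of 7 neocortex markers 4 lay below 0, with Lhx2 at -0.31 ± 0.067 and Neurod6 at 0.19 ± 0.055. The proliferation genes Rrm2 and Mcm3 had 0.56 ± 0.073 and 0.45 ± 0.065, the meninges genes Ptgds and Dcn -0.66 ± 0.13 and -0.39 ± 0.089, and the red cell genes Alas2 and Hbb-y -0.32 ± 0.067 and -0.33 ± 0.11. None of these genes passed the limma test over all features.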
